A study of Rattus norvegicus with 18 samples.

Results

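The genes described here are the 69 rat genes whose symbols belong to the 4 classical guidance systems, taken by name from the 22081 genes listed in the expression files at every time point. They comprise 21 ephrins and Eph receptors, 20 semaphorins, 11 plexins and neuropilins, 7 slits and robos, and 10 netrins and Unc5 receptors. Guidance cues were named for steering growing axons, and each acts through its own receptors at the surface of the responding cell: ephrins through Eph receptors, semaphorins through plexins and neuropilins, slits through robos, and netrins through Dcc, neogenin and the Unc5 receptors. Ephrins and most Eph receptors are themselves bound to cell membranes, so that they signal where cells touch. In the lung the same proteins are known from blood vessels, epithelium and immune cells, among them ephrin-B2 and EphB4, which mark arterial and venous endothelium.

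RNA was measured by RNA-seq in lungs of male F344/DuCrlCrlj rats, with 3 rats in each of 6 groups. The 9 control rats received the vehicle alone, saline with Tween 80, into the trachea, and the 9 MWCNT-treated rats received MWNT-7, a straight and rigid multiwalled carbon nanotube, in the same vehicle at 0.5 mg/kg. Instillation was repeated every 4 weeks from 9 weeks of age, for 26 doses by the end, and rats of both treatments were examined at Years 0.5, 1 and 2. Each library came from a small piece of the accessory lobe in which no tumour was seen, so all cell types of the lung are mixed in it, and fewer cells of a type and less RNA per cell cannot be told apart. The libraries of control rats held 13297643 to 17868851 counts and those of treated rats 14661589 to 21130757. Markers of alveolar type 2 cells, such as the surfactant protein gene Sftpc, were detected in every rat.

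Of the 69 guidance genes, 60 had enough reads to be tested at each time point, and 59 were tested at all 3. The 8 genes tested at no time point were Efna3, Epha5, Epha10, Ntn5, Plxnb3, Robo3, Robo4 and Slit1, none of which had more than 26 counts in any rat. Ntn3 was tested only at Year 2, and Efnb3 only at Year 0.5 and Year 1. Averaged over the 18 rats, the highest TPM values (a level that takes account of gene length and sequencing depth) were 194 for Sema3g, 174 for Plxnb2, 148 for Nrp1, 145 for Efnb2, 136 for Efna1 and 132 for Sema4a.

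MWCNT-treated rats were compared with control rats of the same time point by the quasi-likelihood test of edgeR across all genes, and FDR below is its p-value after Benjamini-Hochberg adjustment over all genes tested. Falls outnumbered rises among the guidance genes. At Year 0.5, 26 of the 60 tested guidance genes were lower at an FDR below 0.05, or 43.3%, where 18.6% of all 14315 tested genes were lower, and 11 were higher, or 18.3%, where 20.2% of all genes were higher and 38.8% passed in either direction. The corresponding numbers at Year 1 were 27 lower, or 45.0% against 19.6% of all genes, and 9 higher, against 21.6%, with 41.2% of all genes passing in either direction. Those at Year 2 were 26 lower, or 43.3% against 24.0%, and 14 higher, or 23.3% against 25.2%, with 49.2% passing in either direction. The median log2 fold change of the tested guidance genes was -0.22, -0.34 and -0.21 at the 3 time points, and that of all tested genes was -0.02, 0.00 and -0.01.

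**Figure D1:**
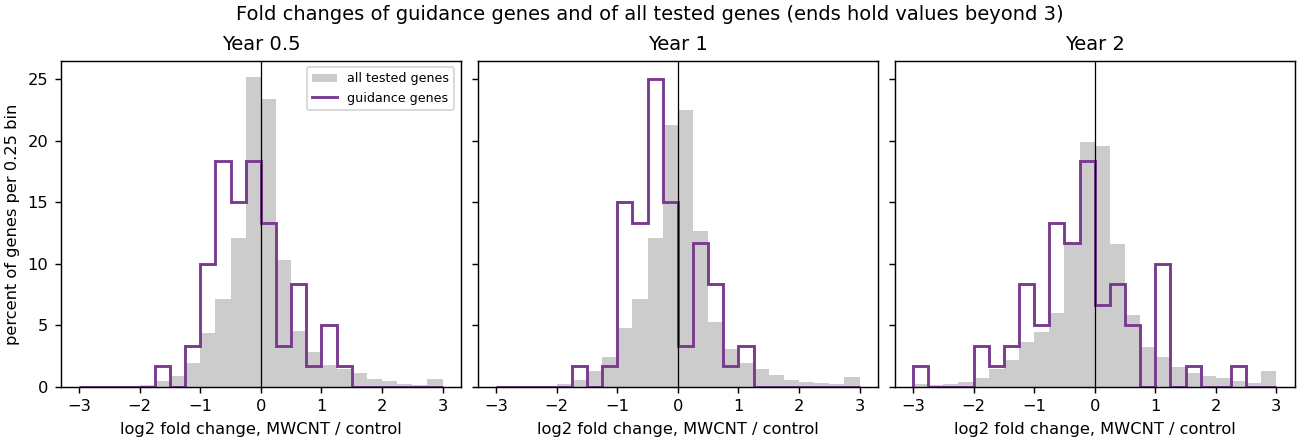
Percent of genes (vertical axis) per 0.25-wide bin of the log2 fold change of MWCNT-treated against control rats (horizontal axis), for all tested genes (grey) and the 60 tested guidance genes (line) at each time point, with values beyond 3 placed in the end bins. The guidance genes lie to the left of all genes, with medians of -0.22, -0.34 and -0.21 against -0.02, 0.00 and -0.01.

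The study's criterion for differentially expressed genes (DEGs) adds to the FDR a log2 fold change beyond 1 in either direction, and it gave smaller counts. At Year 0.5, 4 guidance genes were higher and 3 lower, against 6.07% and 3.03% of all tested genes, or 9.10% together. At Year 1, 2 were higher and 2 lower, against 6.13% and 4.09%, or 10.2% together. At Year 2, 7 were higher and 11 lower, against 8.17% and 8.22%, so that 18 of the 60 tested guidance genes were DEGs, where 16.4% of all genes were. These splits depended on scaling. When libraries were scaled by their total counts alone, the median of all genes moved by -0.10, -0.13 and -0.17 on the log2 scale at the 3 time points, and the guidance DEGs became 3 higher and 3 lower, 1 higher and 6 lower, and 2 higher and 11 lower.

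Some guidance genes passed the FDR in the same direction at every time point. At an FDR below 0.05, 19 guidance genes were lower at all 3 time points: Efna1, Efnb1, Efnb2, Epha4, Ephb4, Nrp1, Ntn1, Ntn4, Plxnb1, Robo2, Sema3a, Sema3b, Sema3e, Sema3f, Sema3g, Sema6a, Sema6c, Slit3 and Unc5b. They made up 32.2% of the 59 guidance genes tested at every time point, where 12.2% of all 14108 such genes were lower each time. Another 7 were higher at all 3: Efna2, Epha7, Plxnb2, Plxnc1, Sema3c, Sema4a and Sema4b, or 11.9% against 14.8% of all genes. The number that passed in opposite directions at different time points was 0, and over all genes the share was 0.144%. A further 12 of the 61 genes tested at any time point, or 19.7% against 39.8% of all genes, passed at none, among them Epha2, Sema4d, Plxna3, Ntng1 and Unc5c.

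**Figure D2:**
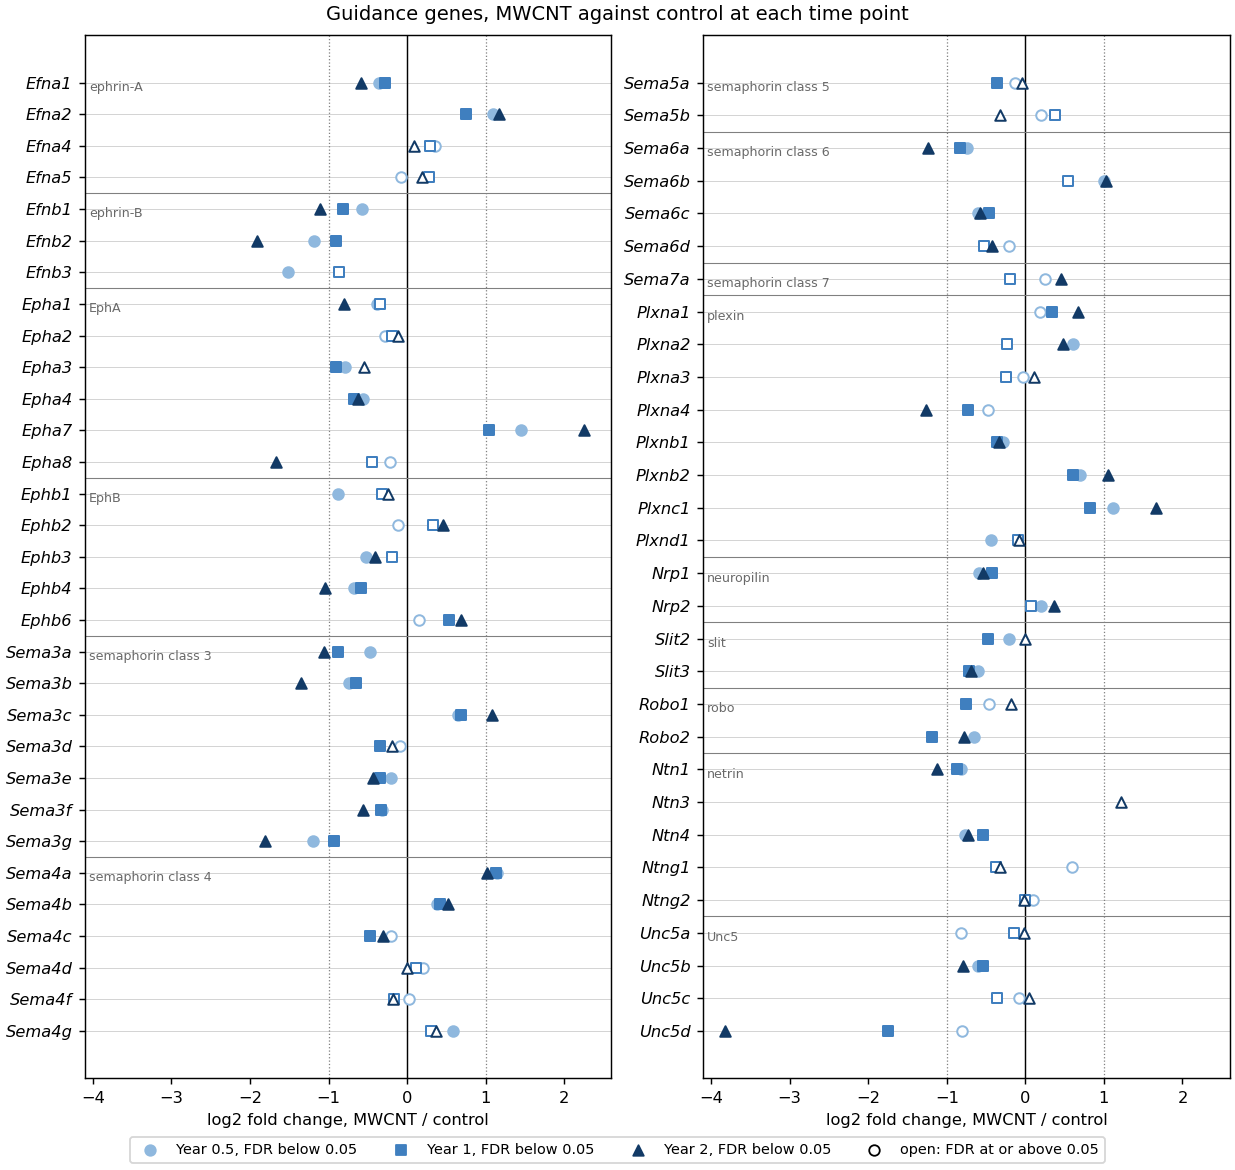
Log2 fold change of MWCNT-treated against control rats (horizontal axis) for every tested guidance gene (rows, by family) at Year 0.5 (circles), Year 1 (squares) and Year 2 (triangles), with filled symbols for an FDR below 0.05 and dotted lines at -1 and 1. The ephrin-B genes and Sema3g lie to the left at all time points, Sema4a, Plxnc1 and Epha7 to the right, and Unc5d falls furthest, to -3.83 at Year 2.

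The promoters of 3 genes that fell and 3 that rose are shown to set their sequences beside the opposite changes. Each runs from 250 bases before to 50 bases after the transcription start in RefSeq (build GRCr8, gene strand, 5′ to 3′). Capitals mark the GC box GGGCGG or its reverse complement, the core letters bound by Sp-family factors. The windows are chr16:87484965-87485264 (+) for Efnb2, chr16:6419775-6420074 (+) for Sema3g, chr12:24988339-24988638 (-) for Ephb4, chr2:176212209-176212508 (-) for Sema4a, chr7:31430556-31430855 (-) for Plxnc1 and chr7:122137899-122138198 (-) for Plxnb2. The first 3 are those that fell.
Efnb2: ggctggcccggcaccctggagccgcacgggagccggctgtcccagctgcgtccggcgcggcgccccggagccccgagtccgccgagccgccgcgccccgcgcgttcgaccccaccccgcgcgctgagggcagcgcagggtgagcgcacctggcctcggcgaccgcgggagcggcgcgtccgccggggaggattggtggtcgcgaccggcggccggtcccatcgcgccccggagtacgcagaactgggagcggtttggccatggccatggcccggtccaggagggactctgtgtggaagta
Sema3g: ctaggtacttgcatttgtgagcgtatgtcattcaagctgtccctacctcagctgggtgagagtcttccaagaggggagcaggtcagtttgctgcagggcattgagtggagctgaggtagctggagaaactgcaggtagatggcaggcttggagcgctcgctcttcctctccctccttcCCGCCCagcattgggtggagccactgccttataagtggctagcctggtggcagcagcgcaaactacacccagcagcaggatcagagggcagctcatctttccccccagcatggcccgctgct
Ephb4: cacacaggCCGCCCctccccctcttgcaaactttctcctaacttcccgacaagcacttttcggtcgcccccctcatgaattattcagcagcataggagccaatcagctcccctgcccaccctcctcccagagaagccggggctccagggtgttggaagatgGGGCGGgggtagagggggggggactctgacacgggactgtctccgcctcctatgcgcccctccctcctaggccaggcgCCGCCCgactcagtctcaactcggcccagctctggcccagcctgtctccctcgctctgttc
Sema4a: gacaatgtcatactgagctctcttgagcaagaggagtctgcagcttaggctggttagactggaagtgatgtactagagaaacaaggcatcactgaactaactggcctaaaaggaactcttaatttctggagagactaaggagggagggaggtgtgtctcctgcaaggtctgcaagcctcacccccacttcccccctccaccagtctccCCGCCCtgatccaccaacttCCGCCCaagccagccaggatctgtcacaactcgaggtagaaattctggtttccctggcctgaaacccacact
Plxnc1: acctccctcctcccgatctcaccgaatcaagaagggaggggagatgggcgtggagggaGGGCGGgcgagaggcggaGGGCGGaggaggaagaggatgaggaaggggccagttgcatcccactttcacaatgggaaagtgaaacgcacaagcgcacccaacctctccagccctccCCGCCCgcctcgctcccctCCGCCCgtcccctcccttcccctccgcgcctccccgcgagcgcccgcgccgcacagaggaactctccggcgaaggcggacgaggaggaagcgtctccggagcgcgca
Plxnb2: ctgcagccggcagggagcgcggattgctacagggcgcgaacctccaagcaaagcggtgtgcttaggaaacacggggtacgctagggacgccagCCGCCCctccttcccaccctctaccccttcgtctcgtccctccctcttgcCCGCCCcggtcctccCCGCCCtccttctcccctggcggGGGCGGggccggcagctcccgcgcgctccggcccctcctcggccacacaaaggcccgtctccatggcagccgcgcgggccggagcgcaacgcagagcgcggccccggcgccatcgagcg

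Among these, Efnb2 held 0 GC boxes and 45 CpG dinucleotides, whereas Sema3g held 1 GC box and 6 CpG, and Ephb4 held 3 GC boxes and 14 CpG. Of the genes that rose, Sema4a held 2 GC boxes and 3 CpG, and Plxnc1 and Plxnb2 each held 4 GC boxes with 30 and 36 CpG. The ranges of both counts overlapped between the genes that fell and those that rose. A promoter was listed for 54 of the 69 guidance genes, and 29 of them, or 53.7%, held a GC box on either strand, against 33.1% of all 33469 promoters. The median CpG count was 18 in guidance genes and 7 in all promoters. The letters TATAAA were found on either strand in 0 of the 54 and in 14.2% of all promoters. The ETS letters CCGGAA were found in 4, or 7.41%, and in 5004 of all promoters, and the AP-1 letters TGANTCA in 1, or 1.85%, against 7.33%. Such matches describe the letters in these windows and nothing about binding. The 33469 promoters were used as listed, not limited to the 22081 genes of the expression data, whereas each guidance gene was counted once. The 2 sets may thus differ in kind, and whether the contrasts are particular to guidance genes was not tested.

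Among the ephrins, the B class fell most. Efnb2 encodes ephrin-B2, a transmembrane ligand of EphB receptors (ENSRNOG00000014648, chromosome 16, 86631064 to 86675049 in Rnor_6.0). Its TPM in the 3 control rats was 260.5, 256 and 195 at Year 0.5, 228, 156 and 168 at Year 1, and 207, 244 and 206 at Year 2. The treated rats had 115, 69.97 and 100 at Year 0.5, 117, 58.2 and 78.0 at Year 1, and 35.3, 56.4 and 59.3 at Year 2. Every treated rat was below every control rat of its time point, and the lowest mean was that of the treated rats of Year 2. The log2 fold change was -1.18 (SE 0.17, FDR 0.000889), -0.91 (SE 0.23, FDR 0.0121) and -1.91 (SE 0.17, FDR 2.04e-05) by the edgeR test.

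Efnb1, which encodes ephrin-B1 (ENSRNOG00000006877, chromosome X, 68891227 to 68904038), showed the same order of groups at each time point. At Year 2 its TPM was 131, 149.9 and 137 in control rats and 51.2, 49.3 and 66.1 in treated rats, with no overlap, and the log2 fold change was -1.11 (SE 0.11, FDR 3.89e-05 by edgeR). At Year 0.5 and Year 1 it was -0.57 and -0.82, both past the FDR. Efnb3, the third member, was expressed at a low level, with 20 to 22 counts in control rats and 5 to 12 in treated rats at Year 0.5. The log2 fold change at that time was -1.51 (FDR 0.00964 by edgeR), and it was -0.87 (FDR 0.14) at Year 1.

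Ephrin-A ligands are anchored to the membrane by a lipid. Efna1, which supplied 89.7% of the summed TPM of the 5 ephrin-A genes, had a mean TPM of 172 ± 15.2, 160 ± 9.70 and 160 ± 13.6 (SD, n = 3) in control rats and of 122 ± 12.4, 112 ± 9.99 and 91.5 ± 7.62 in treated rats. The groups did not overlap at any time point, and the log2 fold changes of -0.36, -0.28 and -0.59 passed the FDR each time. Efna2 moved the other way from a low level. Its TPM at Year 2 was 2.88, 3.39 and 3.36 in control rats and 5.70, 7.73 and 5.20 in treated rats, while on the log2 scale the change was 1.09, 0.75 and 1.17 at the 3 time points. The FDR of Efna2 at Year 0.5, 0.0182 by edgeR, reached 0.0565 in the least favourable alternative setting.

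Of the EphB receptors, Ephb4 carried 75.7% of the summed TPM of its family. Ephb4 encodes the receptor that pairs with ephrin-B2 (ENSRNOG00000045952, chromosome 12, 22393330 to 22417980). Its TPM was 107, 100.4 and 104 in the control rats of Year 0.5, 101, 91.5 and 99.5 at Year 1, and 94.9, 112 and 90.5 at Year 2. In treated rats it was 64.1, 48.8 and 65.0, then 60.5, 44.9 and 60.3, then 37.3, 42.1 and 44.5. The groups were separate at every time point. Its change on the log2 scale was -0.67 (SE 0.10, FDR 0.000862), -0.59 (SE 0.10, FDR 0.00194) and -1.05 (SE 0.09, FDR 2.28e-05) by the edgeR test.

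The other EphB receptors differed among themselves. Ephb6, a receptor without an active kinase, was higher at Year 1 (log2 fold change 0.53, FDR 0.0121 by edgeR) and at Year 2 (0.68, FDR 0.00585), where the TPM was 3.97, 3.63 and 3.64 in control rats and 4.73, 4.69 and 6.16 in treated rats. Ephb2 was higher at Year 2 at 0.46, with TPM that overlapped between the groups, whereas Ephb3 was lower at Year 0.5 and Year 2 at -0.52 and -0.41. At an FDR below 0.05, the EphB family had 3 genes lower and 0 higher at Year 0.5, and 2 lower and 2 higher at Year 2, among 5 tested. Of all genes, 18.6% were lower and 20.2% higher at Year 0.5, and 24.0% and 25.2% at Year 2. So few genes do not set the family apart from these shares.

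Among the EphA receptors, Epha7 rose at every time point and Epha8 fell at Year 2. Epha7 (ENSRNOG00000007030, chromosome 5, 43603043 to 43757549) had a TPM of 0.882, 1.54 and 2.26 in control rats and of 3.68, 4.59 and 3.21 in treated rats at Year 0.5. At Year 2 it was 0.317, 0.577 and 1.51 in control rats and 3.46, 3.37 and 2.92 in treated rats. Its treated rats exceeded its control rats at all time points, although the control rats of Year 2 were widely spread. On the log2 scale the change was 1.45 (SE 0.32, FDR 0.00727), 1.04 (SE 0.22, FDR 0.00525) and 2.25 (SE 0.44, FDR 0.00255) by the edgeR test, so Epha7 was a DEG each time. The DEG call of Year 1 was lost in 6 of 18 alternatives, with estimates down to 0.55, among them without control replicate 1 or treated replicate 1 or 3 of that year.

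Epha8 fell at Year 2, with counts of 75, 71 and 48 in control rats and of 19, 29 and 13 in treated rats, and a log2 fold change of -1.67 (SE 0.32, FDR 0.0024 by edgeR). At Year 0.5 its TPM overlapped between the groups, and its FDR was 0.49. Epha1 was lower at Year 0.5 and Year 2, at -0.38 and -0.81 on the log2 scale, but its locus overlaps the Zyx gene and the strand setting of the read counting is not given in the sources used here. Epha2, the most abundant EphA gene, did not pass at any time point. Its mean TPM was 46.9 ± 9.01, 40.4 ± 4.51 and 36.4 ± 7.34 (SD, n = 3) in control rats and 35.0 ± 1.57, 30.2 ± 2.25 and 28.9 ± 0.617 in treated rats. Every treated rat was nevertheless below every control rat of its time point in TPM. Separate groups in TPM thus also occurred without a call, and their share over all genes was not computed.

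**Figure D3:**
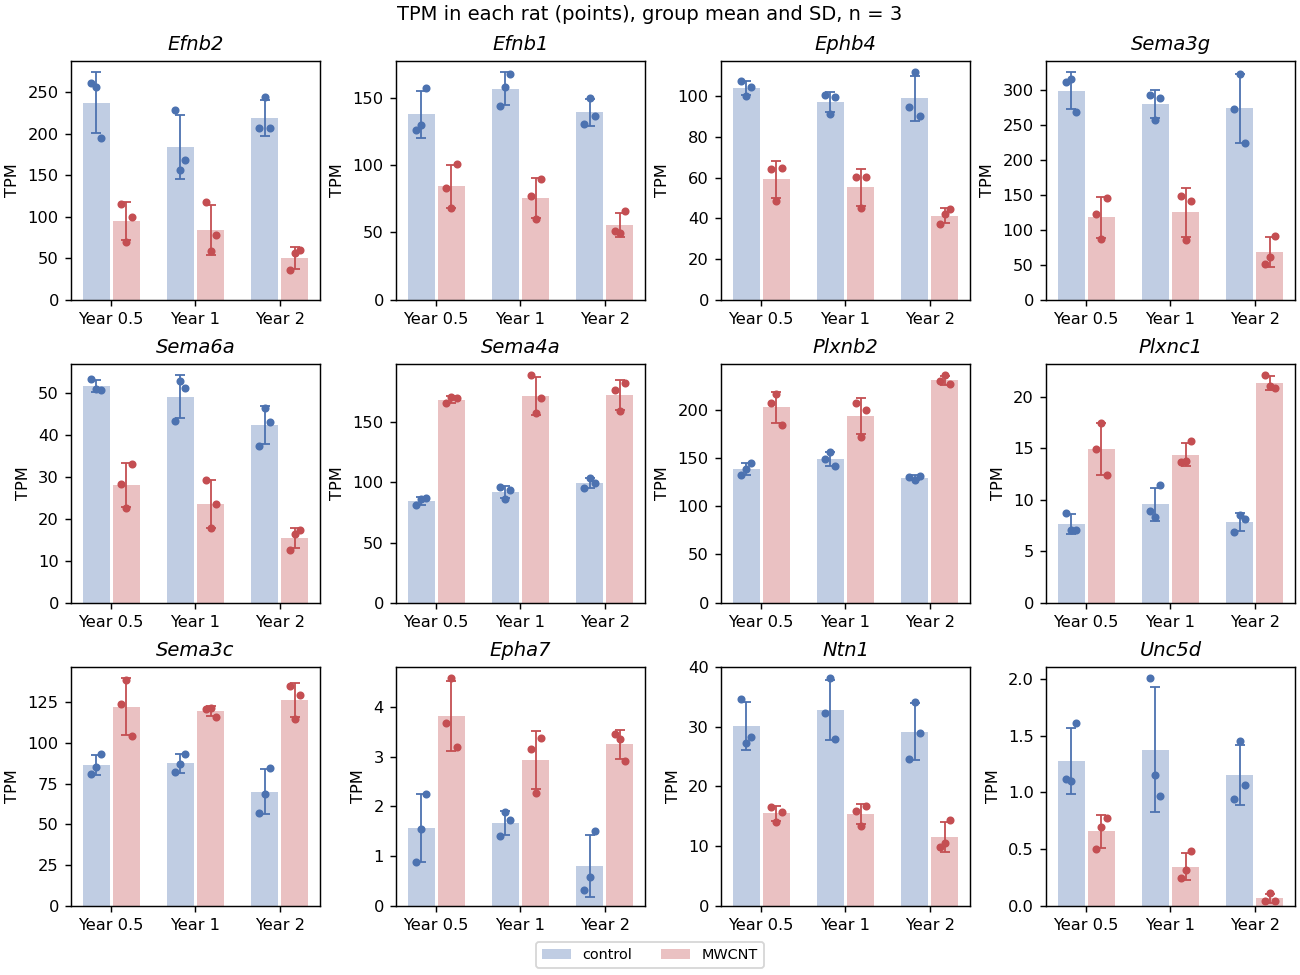
TPM (vertical axis, linear from 0) of 12 guidance genes in each rat (points) with the group mean (bar) and SD (error bar), n = 3, for control (blue) and MWCNT-treated rats (red) at Years 0.5, 1 and 2 (horizontal axis). Efnb2, Efnb1, Ephb4, Sema3g, Sema6a, Ntn1 and Unc5d are lower in every treated rat than in the control rats of the same time point, and Sema4a, Plxnb2, Plxnc1, Sema3c and Epha7 are higher.

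The class 3 semaphorins are secreted and signal through neuropilins and plexins. Sema3g (ENSRNOG00000018952, chromosome 16, 7303578 to 7315390), which is known from arterial endothelium, was the most abundant guidance gene in control lungs. Its TPM in control rats was 312, 316 and 269 at Year 0.5, 293, 257 and 289 at Year 1, and 274, 324 and 224 at Year 2. In treated rats it was 122, 87.2 and 145 at Year 0.5, 149, 85.2 and 141 at Year 1, and 50.6, 60.8 and 91.7 at Year 2. No treated rat reached the lowest control rat of its time point. The log2 fold change was -1.20 (SE 0.16, FDR 0.000472), -0.94 (SE 0.17, FDR 0.0022) and -1.81 (SE 0.21, FDR 0.000107) by the edgeR test.

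Sema3b followed the same direction, and Sema3c the opposite one. Sema3b (ENSRNOG00000016512, chromosome 8, 116354073 to 116361343) had a TPM at Year 2 of 96.6, 105 and 91.7 in control rats and of 28.1, 28.9 and 41.9 in treated rats, a log2 fold change of -1.36 (SE 0.14, FDR 5.11e-05 by edgeR). It was -0.73 and -0.65 at the earlier time points. Sema3c (ENSRNOG00000006526, chromosome 4, 14318274 to 14490446), known for its part in the development of the outflow vessels of the heart, had a TPM at Year 2 of 57.2, 68.4 and 84.6 in control rats and of 135, 115 and 129.8 in treated rats. The rise of Sema3c was 0.65 (FDR 0.00188), 0.69 (FDR 0.00025) and 1.07 (FDR 0.000125) on the log2 scale by edgeR, and its groups did not overlap at any time point.

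Sema3c was the one class 3 gene that rose. Sema3a, the classical repellent of sensory axons, was at 10.9 ± 0.921, 12.5 ± 0.905 and 10.4 ± 1.51 TPM (SD, n = 3) in control rats and at 7.12 ± 0.758, 5.76 ± 0.770 and 4.27 ± 0.263 in treated rats. Its log2 fold change was -0.47, -0.88 and -1.06, past the FDR each time. Sema3e, a ligand of plexin-D1, fell less, by 0.21, 0.34 and 0.43 on the log2 scale. In all, 5, 6 and 5 of the 7 class 3 genes were lower and 1 was higher at the 3 time points. Of all genes, 18.6%, 19.6% and 24.0% were lower and 20.2%, 21.6% and 25.2% higher. The locus of Sema3f, one of the genes that fell, overlaps Gnat1.

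In class 4, whose members are membrane-bound and several of which act in immune cells, Sema4a rose. Sema4a (ENSRNOG00000019737, chromosome 2, 187799568 to 187822997) had a TPM of 81.1, 85.8 and 87.1 in the control rats of Year 0.5 and of 166, 172 and 169.9 in the treated rats. At Year 1 the values were 96.6, 86.4 and 93.5 against 189, 158 and 170.1, and at Year 2 they were 95.5, 104 and 99.3 against 177, 159 and 183. The rats within each group lay close together, and the groups were far apart. By log2 fold change the rise was 1.14 (SE 0.06, FDR 5.51e-06), 1.14 (SE 0.08, FDR 2.09e-05) and 1.01 (SE 0.08, FDR 9.48e-06) by the edgeR test. Under the other settings the rise was 0.99, 0.89 and 0.79 at its lowest, each short of the DEG limit. Sema4b was also higher at each time point, at 0.38, 0.41 and 0.53, whereas Sema4c was lower at Year 1 and Year 2, at -0.47 and -0.31. Sema4d and Sema4f did not pass at any time point.

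Of the transmembrane class 6 semaphorins, Sema6a fell and Sema6b rose. Sema6a had a TPM of 53.3, 51.1 and 50.7 in control rats and of 28.3, 22.6 and 33.2 in treated rats at Year 0.5, and of 37.5, 46.5 and 43.2 against 12.6, 16.4 and 17.3 at Year 2. These groups did not overlap, and the log2 fold change was -0.74 (SE 0.12, FDR 0.00116), -0.83 (SE 0.14, FDR 0.00182) and -1.24 (SE 0.11, FDR 2.61e-05) by edgeR. Sema6b was higher at Year 0.5 (1.00, FDR 0.00189) and Year 2 (1.03, FDR 0.000297), but at Year 1, where one control rat had a TPM of 6.42 and the other two had 14.3 and 14.5, the groups overlapped and the FDR was 0.105. Sema6d, the most abundant of the class, passed only at Year 2, at -0.42. Sema5a, the more abundant of the class 5 genes, was lower at Year 1 alone, at -0.36 (FDR 0.00907 by edgeR). Sema7a, an anchored semaphorin that binds plexin-C1, also passed only at Year 2, at 0.45 (FDR 0.00431 by edgeR). For Sema5a, Sema6b, Sema6d and Sema7a the difference between time points did not pass the interaction test.

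Among the receptors of the semaphorins, 2 plexins rose at every time point. Plxnb2 (ENSRNOG00000007133, chromosome 7, 130135464 to 130151880), a receptor of class 4 semaphorins, had a TPM in control rats of 133, 139 and 145 at Year 0.5, 149, 157 and 141 at Year 1, and 131, 127 and 132 at Year 2. In treated rats it was 207, 216 and 185, then 208, 172 and 200, then 229.9, 236 and 227. Each treated rat was above all control rats of its time point. The log2 fold change was 0.69 (SE 0.08, FDR 0.00027), 0.61 (SE 0.08, FDR 0.000463) and 1.05 (SE 0.07, FDR 6.46e-06) by the edgeR test.

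Plxnc1 (ENSRNOG00000007970, chromosome 7, 35850398 to 36000906), the receptor of Sema7a, was less abundant and rose more. Its TPM was 8.73, 7.04 and 7.10 in control rats and 14.97, 17.5 and 12.4 in treated rats at Year 0.5, 8.92, 8.32 and 11.4 against 13.7, 13.8 and 15.7 at Year 1, and 6.90, 8.49 and 8.15 against 22.1, 21.1 and 20.8 at Year 2. The treated rats of Year 2 were the highest of all. On the log2 scale the rise was 1.12 (SE 0.15, FDR 0.000477), 0.82 (SE 0.12, FDR 0.00104) and 1.66 (SE 0.09, FDR 1.59e-06) by the edgeR test.

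The remaining plexins did not share a direction. Plxna1 was higher at Year 1 and Year 2, at 0.34 and 0.68 on the log2 scale, and its TPM at Year 2 was 48.9, 61.1 and 56.8 in control rats against 72.4, 85.6 and 70.9 in treated rats. Plxna4 was lower at Year 1, at -0.73 (FDR 0.0415), and at Year 2, at -1.27 (SE 0.31, FDR 0.00837 by edgeR), with counts of 75, 85 and 129 against 30, 60 and 32. Plxnb1 fell by 0.28, 0.36 and 0.33 on the log2 scale, and Plxnd1, known from endothelium, was lower at Year 0.5 only, at -0.43. Nrp1, the co-receptor shared by class 3 semaphorins and VEGF, was lower at each time point. Its mean TPM was 213 ± 21.5, 183 ± 18.3 and 156 ± 10.5 (SD, n = 3) in control rats and 128 ± 21.3, 117 ± 18.6 and 92.6 ± 6.01 in treated rats, with log2 fold changes of -0.59, -0.42 and -0.53. Nrp2 was slightly higher at Year 0.5 and Year 2, at 0.19 and 0.36, but its TPM overlapped between the groups at every time point.

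Slits are secreted ligands of the robo receptors. Slit3, the most abundant slit, fell by 0.60, 0.72 and 0.69 on the log2 scale, from a mean TPM of 48.8 ± 1.16, 49.2 ± 4.12 and 38.0 ± 2.68 (SD, n = 3) in control rats to 29.3 ± 4.77, 25.5 ± 5.09 and 20.2 ± 2.87 in treated rats. Slit2 was lower at Year 0.5 and Year 1, at -0.21 and -0.47, and at Year 2 it was at -0.01 (FDR 0.956 by edgeR). Its TPM at Year 2 was nevertheless lower in every treated rat than in every control rat. Robo2 (ENSRNOG00000029598, chromosome 11, 11062790 to 11585765) fell at each time point. Its TPM at Year 1 was 6.20, 6.58 and 7 in control rats and 2.98, 1.88 and 2.56 in treated rats, without overlap, and the log2 fold change was -0.66, -1.19 (SE 0.13, FDR 0.000206 by edgeR) and -0.79.

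Robo4, the robo of endothelial cells, could not be read from the gene of that name, which had counts in 2 of the 18 rats, 8 and 26. A gene listed as LOC100911068 on chromosome 8 carries the identifier that RefSeq now gives to Robo4, and it was looked at after this was seen. It had a TPM of 15.9, 15.5 and 12.3 in control rats and of 7.37, 6.64 and 7.06 in treated rats at Year 0.5, and the change on the log2 scale was -0.91 (FDR 0.00054), -0.29 (FDR 0.134) and -0.68 (FDR 0.000981) at the 3 time points by edgeR.

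Netrins are laminin-like secreted proteins. Ntn1 (ENSRNOG00000003947, chromosome 10, 54761871 to 54967585) had a TPM of 34.7, 27.3 and 28.3 in control rats and of 16.6, 14 and 15.7 in treated rats at Year 0.5, and of 24.5, 34.1 and 28.9 against 9.75, 10.5 and 14.4 at Year 2. The groups were separate at each time point, and the log2 fold change was -0.82 (SE 0.12, FDR 0.000709), -0.86 (SE 0.12, FDR 0.000783) and -1.12 (SE 0.16, FDR 0.000411) by edgeR. Ntn4, the most abundant netrin, fell by 0.76, 0.54 and 0.72 on the log2 scale. Ntng2, a membrane-anchored relative, did not pass at any time point. Of the netrin receptors, Dcc had 2 counts in a single rat, a control rat of Year 2, and 0 in the other 17.

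Unc5 receptors mediate repulsion by netrins. Unc5b, which is known from endothelium and supplied 86.2% of the summed TPM of the 4 Unc5 genes, was at 52.8 ± 2.55, 48.7 ± 3.08 and 50.3 ± 7.39 TPM (SD, n = 3) in control rats and at 31.7 ± 4.84, 28.6 ± 4.83 and 25.1 ± 2.69 in treated rats. Its log2 fold change was -0.60, -0.54 and -0.79, past the FDR at each time point. Unc5d (ENSRNOG00000011858, chromosome 16, 67350539 to 67595225) was near the detection limit. Its counts in control rats were 28, 23 and 36 at Year 0.5, 42, 26 and 26 at Year 1, and 21, 33 and 22 at Year 2. In treated rats they were 12, 23 and 19, then 6, 9 and 12, then 1, 3 and 1. The control counts stayed in one range, whereas each later group of treated rats had fewer reads.

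Scaled to library size, the summed Unc5d counts of control rats exceeded those of treated rats 1.87-fold at Year 0.5 (exact 95% interval 1.32 to 2.68), 3.63-fold at Year 1 (2.35 to 5.80) and 17.1-fold at Year 2 (7.03 to 54.3). These intervals cover counting error only and not the spread between rats. By the edgeR test the log2 fold change was -0.80 (SE 0.31, FDR 0.0703), -1.75 (SE 0.42, FDR 0.0106) and -3.83 (SE 0.51, FDR 0.000268).

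Summed over each family, the TPM showed which families carried the most RNA and where the treatments were apart. Family sums are described without a test, and since TPM is scaled to the total of each library, its differences include the shift between scalings given above. The ephrin-B sum was 376 ± 19.4, 342 ± 29.2 and 359 ± 30.9 (SD, n = 3) in control rats and 179 ± 35.2, 160 ± 38.7 and 106 ± 19.5 in treated rats. The class 3 semaphorin sum, the largest, was 628 ± 19.3, 615 ± 17.3 and 570 ± 49.8 against 405 ± 27.7, 396 ± 58.4 and 305 ± 34.5. No treated rat reached the control range in either family.

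The class 4 semaphorin sum went the other way, at 172 ± 5.28, 180 ± 5.31 and 185 ± 7.77 (SD, n = 3) in control rats and 254 ± 2.32, 245 ± 22.8 and 247 ± 9.66 in treated rats. The plexin sum was 398 ± 10.1, 391 ± 15.1 and 365 ± 15.6 against 439 ± 12.6, 397 ± 49.8 and 476 ± 20.6, and its groups overlapped at Year 1. The sums of the ephrin-A, EphA, EphB, neuropilin, slit, robo, netrin and Unc5 families were lower in every treated rat than in every control rat of the same time point. The same held for the class 6 semaphorins, whereas the groups of class 5 and class 7 overlapped at Year 0.5 and at 1 later time point. How often the sums of other gene sets were separate was not tested. Epha2, which passed the FDR at no time point, supplied 49.9% of the EphA sum. The robo sum, 7.23 TPM over the 18 rats, leaves out LOC100911068, which had a mean of 9.89 TPM.

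**Figure D4:**
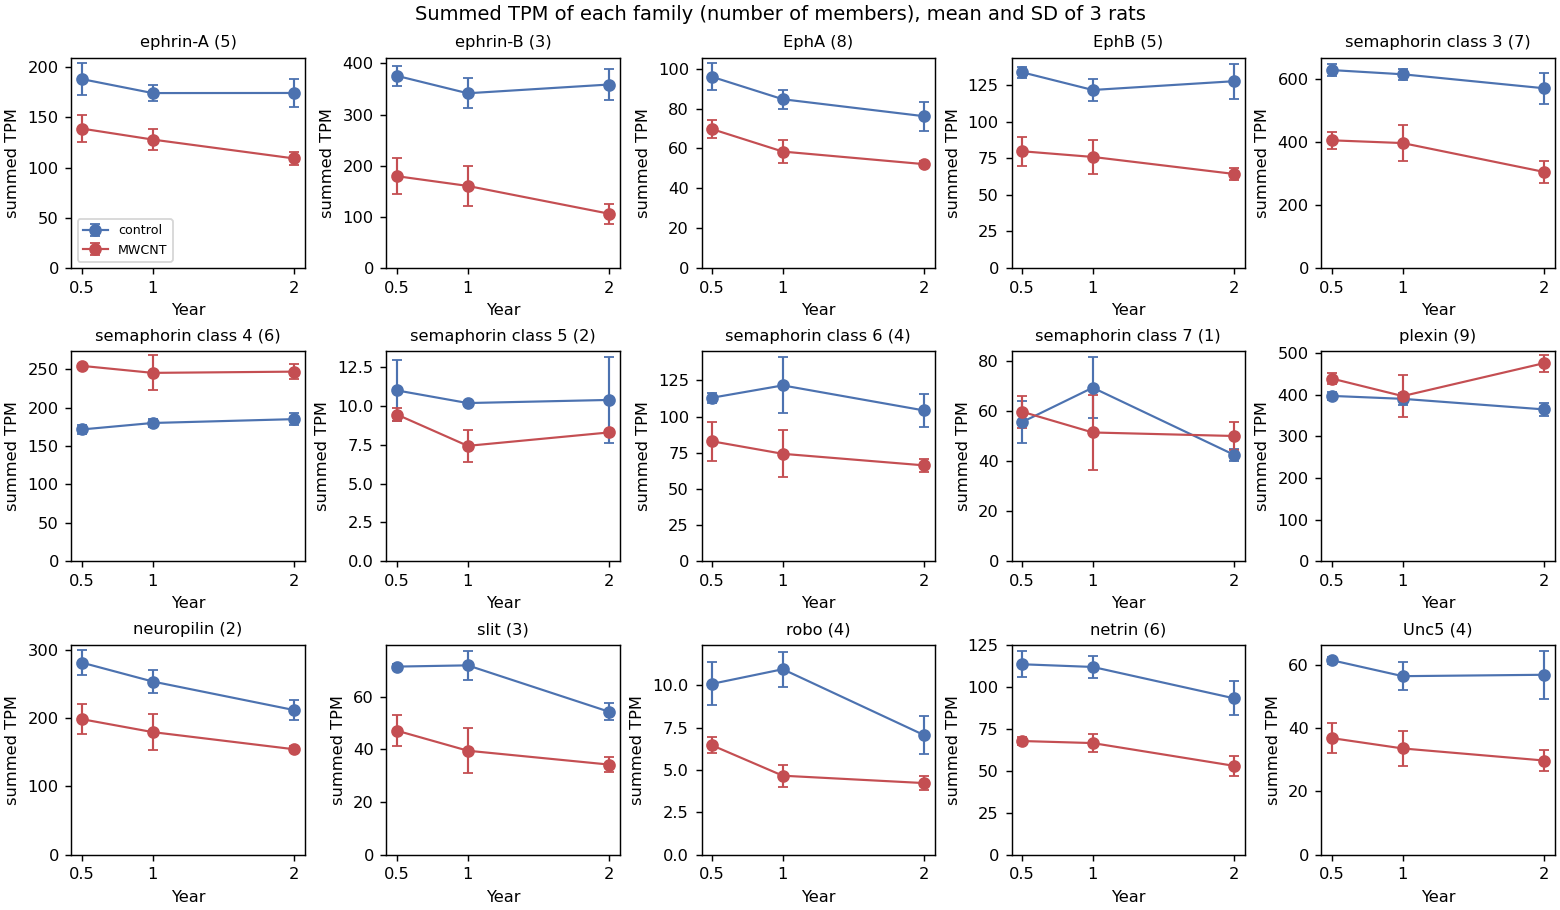
Summed TPM (vertical axis, linear from 0) of each guidance family, with its number of genes in brackets, in control (blue) and MWCNT-treated rats (red) against time in years (horizontal axis), as mean and SD of 3 rats. The ephrin-B sum falls from 376 to 179 TPM at Year 0.5 and from 359 to 106 at Year 2 between control and treated rats, whereas class 4 semaphorins are higher in treated rats.

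Changes with time were tested within each treatment in one edgeR model of all 18 rats, in which 62 guidance genes and 14843 genes in all were tested, and a call required an FDR below 0.05. In MWCNT-treated rats, 17 guidance genes were lower at Year 2 than at Year 0.5, where 6.87% of all genes were lower, and 4 were higher, where 6.65% were higher. The genes that fell with time included Efnb2 (log2 fold change -0.83, FDR 0.0251), Sema3g (-0.72, FDR 0.0339), Sema6a (-0.77, FDR 0.00211), Epha1 (-0.66, FDR 0.000794), Ephb4 (-0.44, FDR 0.0129) and Unc5d (-3.16, FDR 0.000695). Those that rose were Ephb6 (0.79, FDR 0.00062), Plxnc1 (0.59, FDR 0.00552), Plxna1 (0.46, FDR 0.00442) and Plxnb2 (0.27, FDR 0.0195).

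The count of 17 rested on single rats. Without replicate 1 or 3 of the treated rats of Year 0.5 it was 9 or 10, and without replicate 1 or 2 of the treated rats of Year 2 it was 8 or 11. In control rats, Nrp1, Ntn4, Robo2, Sema3e and Slit2 were lower at Year 2 than at Year 0.5, against 4.00% of all genes, and Ntng2 and Sema4a were higher, against 2.65%. The largest of these were the falls of Ntn4 (-0.67, FDR 0.000894) and Robo2 (-0.52, FDR 0.0124). These control calls moved as well. The lower count was 2 without control replicate 1 of Year 0.5, 1 without control replicate 1 or 2 of Year 2 and 10 without control replicate 3 of Year 2, and the higher count was 0 without control replicate 3 of Year 0.5 or 2 of Year 2. Nrp1, Ntn4, Robo2 and Sema3e fell with time in both treatments.

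Between Year 0.5 and Year 1, 0 guidance genes changed in either treatment by edgeR or by DESeq2. At an unadjusted p below 0.05, edgeR gave 2 higher and 5 lower of 62 in control rats, where 7.01% of all genes passed. In MWCNT-treated rats it gave 1 higher and 8 lower, where 9.24% of all genes passed. The shares of all genes called at the FDR were 0% in control rats and 0.101% in treated rats, 0.0808% higher and 0.0202% lower.

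Whether the effect of MWCNT differed between time points was tested by the interaction of treatment and time in the same model. Between Year 2 and Year 0.5, 1 guidance gene passed, Unc5d, with a difference of log2 fold changes of -3.02 (SE 0.63, FDR 0.027 by edgeR), where 0.451% of all genes were lower 0.856% higher and 1.31% changed in either direction. This call was lost, with an FDR of up to 0.0912, without any one of 6 rats: replicates 1 and 2 of the control rats and replicate 3 of the treated rats at Year 0.5, and replicate 2 of the control rats and replicates 1 and 3 of the treated rats at Year 2. The interactions of Year 1 with Year 0.5 and of Year 2 with Year 1 gave 0 calls each by edgeR. Of all genes, 0% and 0.478% passed the FDR in them. At the FDR, DESeq2 gave 0 for the first and 2 higher and 1 lower for the second. At an unadjusted p below 0.05, edgeR gave 1 higher and 3 lower of 62 for the first, where 8.49% of all genes passed. For the second it gave 11 higher and 8 lower, where 16.5% of all genes passed. The larger changes of Efnb2, Sema3g and Plxnc1 at Year 2 than at earlier times were thus not called as differences between time points.

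Further receptors and ligands of guidance were read from a list of 18 genes outside the families above. Of the 15, 14 and 14 tested, 4 were higher at each time point and 5, 7 and 4 were lower at an FDR below 0.05. Of all genes, 20.2%, 21.6% and 25.2% were higher and 18.6%, 19.6% and 24.0% lower, so that at Year 2 the list lay near the background. Neo1, the neogenin receptor of netrins and repulsive guidance molecules, was at 35.0 ± 1.97, 35.1 ± 2.42 and 27.2 ± 3.19 TPM (SD, n = 3) in control rats and at 23.4 ± 3.00, 18.1 ± 1.93 and 15.4 ± 0.851 in treated rats. It fell by 0.44, 0.72 and 0.61 on the log2 scale. Nrcam, a cell adhesion molecule that partners neuropilins and ankyrin, rose by 1.63 (FDR 0.000103), 1.21 (FDR 8.39e-05) and 2.20 (FDR 9.22e-06) in edgeR. Dscam, a netrin receptor with few reads, rose by 1.85, 1.66 and 2.32, and Flrt3 and Lrrc4 were lower at Year 2 by 1.02 and 1.19.

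Markers of several lung cell types also differed between MWCNT-treated and control rats. All 9 tested endothelial markers were lower at an FDR below 0.05 at each time point, and their summed TPM was 1683 to 2332 in control rats and 578.5 to 1105 in treated rats. All 7 macrophage markers were higher each time, with a summed TPM of 557.5 to 766.5 against 2903 to 5632. Of the 7 alveolar type 1 markers, 7, 6 and 7 were lower, and the sum was 5958 to 6981 against 2709 to 4371. Smooth muscle and pericyte markers were lower in 6, 6 and 5 of 6 cases, with a sum of 618.9 to 979.4 against 331.2 to 508.4, and 7, 6 and 7 of the 7 alveolar type 2 markers were higher. The part of these cell types in the changes of the guidance genes was not tested. Nerve and Schwann cell markers summed to 22.5 to 32.3 TPM in control rats and to 21.7 to 25.6 in treated rats, while 2, 2 and 3 of the 6 were higher and 1, 2 and 2 lower, and none was at 0 in a whole group. Among further lists, 2, 3 and 2 of 3 tested airway epithelial markers, 3 of 5 fibroblast markers each time, 2, 0 and 4 of 4 T cell markers, 4, 1 and 2 of 4 B cell markers and 4, 1 and 0 heart muscle markers were lower, and 1, 2 and 2 of 4 neutrophil markers and 0, 3 and 1 of 4 mesothelial markers were higher. In the other direction, 1, 0 and 1 of the 5 fibroblast markers were higher, and 0, 0 and 1 of the 4 mesothelial markers were lower. The endothelial marker Pecam1 was not analysed here.

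**Figure D5:**
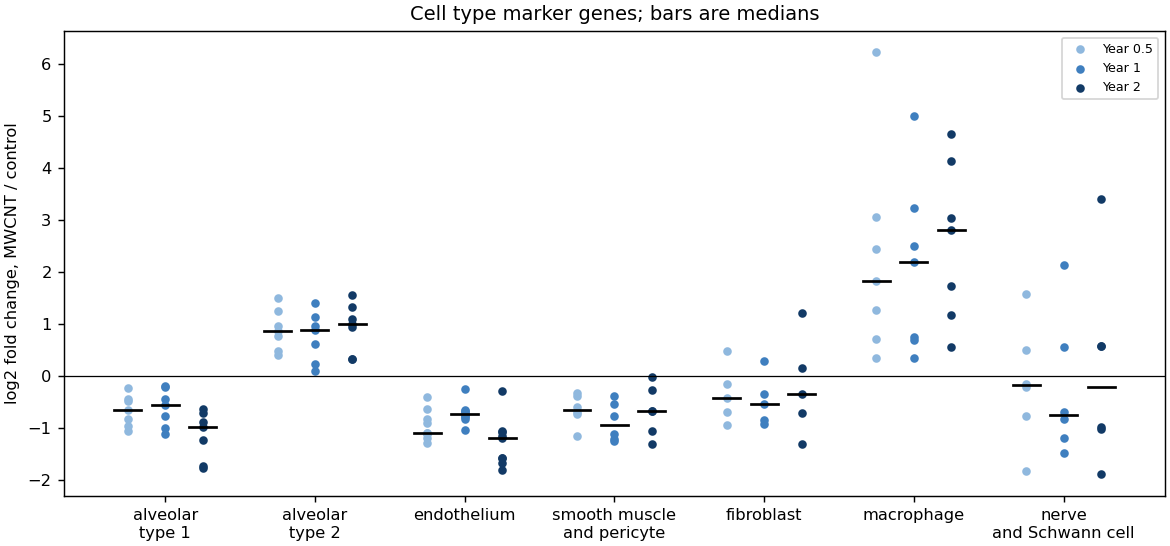
Log2 fold change of MWCNT-treated against control rats (vertical axis) for single marker genes (points) of 7 lung cell types (horizontal axis) at Years 0.5, 1 and 2, with the median as a bar. Endothelial and alveolar type 1 markers lie below 0 and macrophage and alveolar type 2 markers above 0, with endothelial medians of -1.09, -0.73 and -1.20.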

How the data were processed

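The authors extracted RNA (RNeasy), prepared libraries (NEBNext Ultra II), sequenced them on a NovaSeq, and mapped and counted the reads in CLC Genomics Workbench; the submitters' notes name the build Rnor_6.0. The authors deposited the read count per gene, not normalized, and the TPM, scaled for gene length and library total. Strand and multi-mapping settings are not given in the sources used here. The deposited RPKM and TMM-adjusted CPM, and the authors' comparison columns with fold changes and p-values, were not used.

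The counts went into edgeR 4.0.16 under R 4.3.3, where genes were kept by filterByExpr (minimum count 10, minimum total 15), scaled by TMM, and fitted by quasi-likelihood with the 6 rats of a time point, or with all 18 rats for time and interaction. Benjamini-Hochberg FDR values cover all genes tested. DEGs combined an FDR below 0.05 with a log2 fold change beyond 1 in either direction, and time and interaction calls an FDR below 0.05. The steps were tested on simulated data. Groups and replicate numbers came from the sample titles. Each rat was an animal of its own, so the tests set differences between groups of 3 rats against the spread between rats. edgeR estimated that spread from all rats of a fit and drew on all genes tested. Alternatives were other filters, scalings and thresholds, DESeq2 1.42.0, limma 3.58.1 on log2(TPM + 1) and log2(TPM + 0.1), a replicate block, and each rat left out in turn.

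The guidance genes, the lists of other guidance genes and of cell type markers, and the naming rule were chosen with earlier results of these data known. Named genes are DEGs at any time point, the most abundant gene of each family, genes called in a time or interaction contrast, and Ephb4 and Unc5d. Genes outside this rule are named where a set of passing or untested genes is spelled out, and Ephb2, Ephb3, Sema4b, Sema4c, Sema4d, Plxnb1, Plxnd1 and Nrp2 were given values after these were seen. Promoters are from RefSeq GRCr8, and gene coordinates are those of the deposited files.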

Additional observations from a re-analysis of the deposited data

Results flagged for a closer look

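Of the 62 tested guidance genes, 1.61% passed the interaction of Year 2 with Year 0.5, near the 1.31% of all genes that passed. Unc5d was flagged as the 1 guidance gene called there. The difference of its log2 fold changes between Year 2 and Year 0.5 was -3.02 (SE 0.63, FDR 0.027, edgeR interaction test over all genes), and at Year 2 the 3 treated rats had 1, 3 and 1 counts against 21, 33 and 22 in the control rats. The level is low in all groups, at 1.16 ± 0.265 TPM (SD, n = 3) in control rats of Year 2, and leaving out 1 rat in turn gave a difference between -3.64 and -2.78 with an FDR between 0.0224 and 0.0912.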

How the results depend on the processing

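DEG counts are given as higher and lower guidance genes; the counts as reported are 4 and 3 at Year 0.5, 2 and 2 at Year 1, and 7 and 11 at Year 2. Limma on log2(TPM + 1) gave 0 higher at Year 0.5, 0 and 6 at Year 1, and 2 higher at Year 2. On log2(TPM + 0.1) it gave 1 higher, 0 and 9, and 2 higher. Scaling by library size alone gave 1 and 6 at Year 1 and 2 higher at Year 2. At Year 1, 1 was lower with at least 10 counts in every rat and with an FDR below 0.01. The FDR alone gave 11 and 26, 9 and 27, and 14 and 26, and with library size alone, chosen after seeing the data, 9 and 33, 8 and 33, and 12 and 28. The cause of these differences was not tested. Among the 29 DEG calls, those of Efna2, Plxnb2, Sema3c, Sema6b, Sema4a at Year 2 and Epha7 at Year 1 were lost under library size alone, with estimates of the same sign.

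For time in control rats (2 and 5), 1 was higher without a filter, with RLE factors and with the replicate block, and 3 were lower with library size alone and 9 with DESeq2. The interaction of Year 2 with Year 0.5 (0 and 1) gave 2 and 3 with DESeq2 and 2 lower with library size alone. That of Year 2 with Year 1 (0 and 0) gave 2 higher with at least 10 counts in every rat and 2 and 1 with DESeq2.

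Leaving out each rat in turn gave 3 to 5 higher and 2 to 4 lower at Year 0.5, 1 to 2 and 2 to 4 at Year 1, and 5 to 7 and 9 to 11 at Year 2. Time gave 0 to 2 and 1 to 10 in control rats and 3 to 5 and 8 to 19 in MWCNT-treated rats. The interaction gave 0 to 1 and 0 to 2 for Year 2 with Year 0.5 and 0 to 3 and 0 to 1 for Year 2 with Year 1. At Year 1 the higher count was 1 without control replicate 1 or treated replicates 1 or 3, and the lower count 4 without control replicate 2 or treated replicate 1. Single rats whose absence ended a DEG call, by an FDR of up to 0.0565 for Efna2 at Year 0.5 and with the sign kept for all, were, at Year 0.5, control replicates 1 and 2 and treated replicates 1 and 3 for Efna2 and treated replicate 2 for Efnb2 and Plxnc1, and at Year 2, control replicate 1 (Sema3c, Sema6b), 2 (Ephb4) and 3 (Plxna4, Sema3a, Sema4a) and treated replicate 1 (Ephb4, Sema4a), 2 (Efna2) and 3 (Sema4a, Sema6b).

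Signs turned in uncalled genes alone: Ntng2 at Year 0.5 to -0.01 with library size and -0.05 with limma on both TPM scales, Sema4f at Year 0.5 to -0.08 and -0.12, and Slit2 at Year 2 to 0.00 in one model of 18 rats. With single rats left out, the range was -0.21 to 0.05 for Epha2 at Year 2, -0.06 to 0.02 and -0.06 to 0.08 for Ntng2 at Years 1 and 2, -0.01 to 0.06 for Sema4f at Year 0.5, -0.21 to 0.01 and -0.16 to 0.12 for Sema5a at Years 0.5 and 2, and -0.03 to 0.03 for Slit2 at Year 2.

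For same-numbered rats of the treatments, the correlation of their deviations was -0.185 to 0.172 over 9 pairs, 2 of them above 0.1. The replicate numbers are those of the sample titles, which differ from the animal numbers for some rats. Neither these correlations nor the replicate block can therefore decide whether rats were paired. With the replicate block, the DEG counts stayed at 4 and 3, 2 and 2, and 7 and 11. Low counts limit Unc5d, Efnb3, Epha7, Epha8 and Efna2, and 3 rats per group limit all tests.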

Other observations

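The proteins that carry guidance signals inside the cell, taken from a list of 54 genes chosen with earlier results known, were called in both directions. Of the 49, 49 and 50 tested, 11, 12 and 16 were higher and 11, 14 and 11 were lower at an FDR below 0.05 in edgeR, where 20.2%, 21.6% and 25.2% of all genes were higher and 18.6%, 19.6% and 24.0% lower. Tiam1, an exchange factor that activates Rac, rose at each time point. Its mean TPM was 3.33 ± 0.984, 4.23 ± 0.785 and 2.94 ± 0.527 (SD, n = 3) in control rats and 14.2 ± 1.49, 11.8 ± 1.66 and 13.6 ± 0.252 in treated rats, with log2 fold changes of 2.24, 1.70 and 2.42 (FDR 4.01e-05, 3.53e-05 and 1.53e-06). Vav1, an exchange factor of blood cells, was higher at Year 2 by 1.11 (FDR 7.85e-06), while Srgap1, a slit-robo GTPase-activating protein, was lower, at -1.11 (FDR 0.000163).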
